A study of Danio rerio with 6 samples.

Results

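Of 33 listed genes of the notochord and of cartilage, 32 were found by symbol among the 22350 genes of the deposited count table; col27a1a was not among its symbols and was not analysed here. The rule that picks them uses gene symbols and no measured value, but the list was drawn up with earlier results of these data known. Their transcripts were counted in trunk tissue of wild-type zebrafish larvae of the AB strain, cut through the spinal cord at 5 days post fertilization and left for 6 h. The IWR-1 group was then kept in 35 µM IWR-1 with 0.25% DMSO, and the DMSO group in 0.25% DMSO alone, until 8 days post fertilization, which was 3 days after the injury. IWR-1 is a small molecule that stabilises Axin, a scaffold of the complex that degrades β-catenin, and so lowers Wnt signalling. All larvae of both groups were injured. Each of the 3 IWR-1 and 3 DMSO libraries was made from RNA of 20 pooled animals, from a segment of about 1 mm that was trimmed ventrally along the notochord. Depth ran from 11014963 to 15219664 counts per library.

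The notochord is a rod of vacuolated cells inside a sheath of collagen that the sheath cells secrete, and it stiffens the trunk of the larva before vertebrae form around it. Its sheath shares with cartilage a fibril of type II and type XI collagen coated with type IX collagen, together with proteoglycans and matrilins that tie the fibrils into the surrounding gel. In both tissues Sox9, with its partners Sox5 and Sox6, drives the collagen genes, while Tbxta (the zebrafish Brachyury) specifies the notochord, which also secretes the hedgehog ligand Shha.

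Several genes of the notochord and of cartilage were well counted, while other cartilage genes were near 0. The T-box gene tbxta had at least 475 counts and shha at least 230 in every library, and cmn, which encodes the zebrafish notochord protein calymmin, had at least 2108. The proteoglycan gene acanb had at least 1450 and the matrilin gene matn3a at least 552. The hedgehog ligand gene shhb had few, 18 to 36. matn1, a matrilin of cartilage, had 1, 8 and 8 counts in IWR-1 replicates 1, 2 and 3, against 1, 2 and 1 in DMSO replicates 1, 2 and 3. ucmaa, a secreted protein of the cartilage matrix, had 8, 7 and 9 counts with IWR-1, against 6, 1 and 9 with DMSO. The genes matn1 and ucmaa were removed as too low, which left 30 tested genes. The tissue is a mixture, so fewer notochord or cartilage cells and less RNA per cell cannot be told apart in any value here.

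Of the 30 tested genes, 1 fell with IWR-1 and 0 rose, in edgeR's quasi-likelihood test at a Benjamini-Hochberg adjusted p below 0.05. That is 3.33% of them; over all 19562 genes tested, 7.47% were called, 3.88% higher and 3.59% lower. An unadjusted p below 0.05 was found for 5 of the 30, against 24.1% of all genes. For 4 of the 30 every IWR-1 library lay on the same side of every DMSO library in CPM (counts scaled to library size), against 29.8% of all genes. These 4 were col2a1b, col9a1a and matn4, lower with IWR-1, and sox9b, higher with IWR-1. The 30 had a median log2 fold change (IWR-1 over DMSO) of -0.09, and all tested genes one of -0.01. DESeq2 called 2 of 32 genes, both lower, against 7.96% of all its genes, and the authors' deposited table called 2 of 31, against 8.34%. In both the calls were col9a1a and matn4. With the replicate number as a block, edgeR called 2 higher (sox9a and sox9b) and 2 lower (col9a1a and matn4), where 17.8% of all genes were called, 8.96% higher and 8.86% lower.

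**Figure D1:**
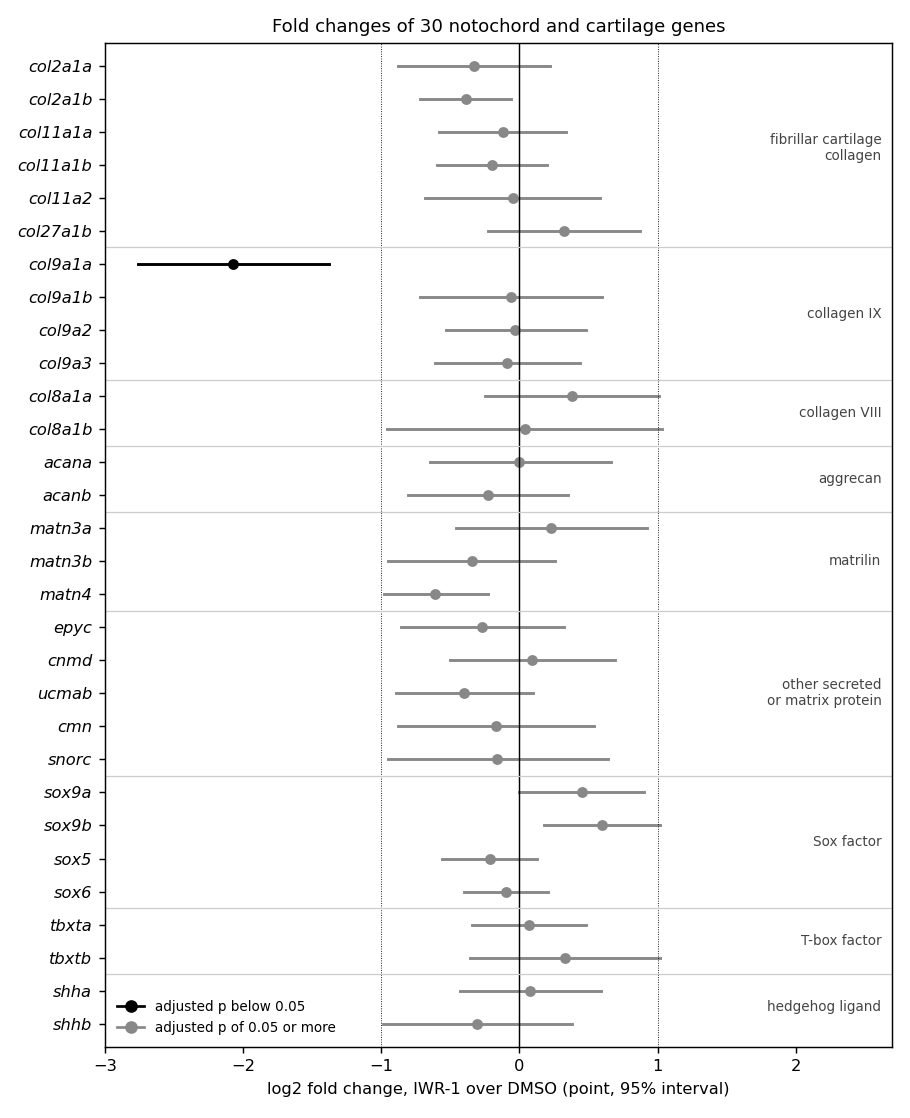
Log2 fold change of IWR-1 over DMSO for the 30 tested genes, grouped by role, with 95% intervals; dotted lines mark 2-fold and black marks an edgeR adjusted p below 0.05. The interval of col9a1a, from -2.76 to -1.38, lies wholly beyond 2-fold lower, while most others span 0.

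For most of the genes the data set a limit on the size of a change and did not show its absence. The 95% interval of the log2 fold change lay within 2-fold in either direction for 25 of the 30, against 71.5% of all genes tested. It lay within 1.5-fold for 5 of the 30, which were col9a2, col11a1a, sox5, sox6 and tbxta, against 30.4% of all genes. The genes outside the 2-fold range were col8a1a, col8a1b, col9a1a, sox9b and tbxtb. The median standard error was 0.26 for the 30 and 0.20 for all genes, so at the median their fold changes were less precise. Their libraries also differed more within groups, with a median SD of 0.42 on the log2 scale, against 0.25 for all genes.

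The fibrillar collagens of cartilage and notochord gave 0 of 6 genes past the test. Type II collagen, the main fibril of the notochord sheath, is encoded by col2a1a and col2a1b. The level of col2a1a was 2057, 1415 and 915 CPM in IWR-1 replicates 1, 2 and 3, against 2051, 1680 and 1794 CPM in DMSO replicates 1, 2 and 3. The spread within the IWR-1 group was larger than the difference between groups (log2 fold change -0.33 ± 0.25 SE, edgeR adjusted p = 0.444). The second copy, col2a1b, had 364, 321 and 324 CPM with IWR-1, against 406, 406 and 509 CPM with DMSO. Every IWR-1 library was below every DMSO library, yet col2a1b did not pass (-0.39 ± 0.15, edgeR adjusted p = 0.143, and 0.0552 with the replicate block). The share of the pair's counts from col2a1b overlapped between groups, at 19.9% ± 5.7 with IWR-1 and 19.4% ± 2.8 with DMSO (SD, n = 3 each).

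Type XI collagen is built into the core of the type II fibril and limits its width. The 907, 676 and 628 CPM of col11a1b in the IWR-1 libraries overlapped the 884, 715 and 939 CPM in the DMSO libraries (log2 fold change -0.20 ± 0.18 SE, edgeR adjusted p = 0.532). The 598, 441 and 376 CPM of col11a1a with IWR-1 overlapped 536, 394 and 610 CPM with DMSO (-0.12 ± 0.21, edgeR adjusted p = 0.759). The 278, 166 and 119 CPM of col11a2 with IWR-1 overlapped 224, 136 and 223 CPM with DMSO (-0.05 ± 0.29, edgeR adjusted p = 0.932). In all 3 genes the highest IWR-1 library was replicate 1 and the lowest DMSO library was replicate 2. col27a1b, a fibrillar collagen of the same tissues, stood at 0.32 ± 0.25 (edgeR adjusted p = 0.469).

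Collagen IX held the 1 gene that fell. It is a short collagen that decorates the type II fibril and is assembled from chains of the genes col9a1, col9a2 and col9a3, the first of which has a and b copies in zebrafish. col9a1a (ENSDARG00000073699, chromosome 11, 11274940 to 11301357 in GRCz11, minus strand) had 0.789, 1.49 and 0.779 CPM with IWR-1, against 4.95, 4.33 and 3.56 CPM with DMSO. The groups lay far apart, at 1.02 ± 0.409 CPM with IWR-1 and 4.28 ± 0.696 CPM with DMSO (SD, n = 3 each). The level with IWR-1 was 4.19-fold lower (log2 fold change -2.07 ± 0.31 SE, edgeR adjusted p = 0.00346). It rests on few reads, 41 counts over the IWR-1 libraries and 162 over the DMSO libraries. With each library left out in turn the gene was still called, at edgeR adjusted p between 0.00233 and 0.0257. In the authors' deposited table its log2 fold change was -1.53, with an adjusted p of 1.7e-05.

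None of the other 3 collagen IX genes passed the test. The paralog col9a1b had 268, 153 and 130 CPM with IWR-1, against 215, 117 and 242 CPM with DMSO (log2 fold change -0.06 ± 0.30 SE, edgeR adjusted p = 0.924). For col9a2 the log2 fold change was -0.03 ± 0.23 (0.00 with upper-quartile scaling) and for col9a3 -0.09 ± 0.24, at edgeR adjusted p of 0.959 and 0.859. Summed over the 4 genes, collagen IX stood at 431 ± 158 CPM with IWR-1 and 450 ± 110 CPM with DMSO. Of the counts of the col9a1 pair, the a copy gave 0.294, 0.968 and 0.596% with IWR-1, against 2.25, 3.56 and 1.45% with DMSO. The a copy was thus a small part of the pair's counts in every library, and its share was lower in each IWR-1 library than in each DMSO library. Among the 9 a and b pairs of these genes with both copies tested, 3 had shares that did not overlap between groups, against 28.5% of the 2214 such pairs over all genes. The other 2 were matn3a with matn3b and acana with acanb.

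**Figure D2:**
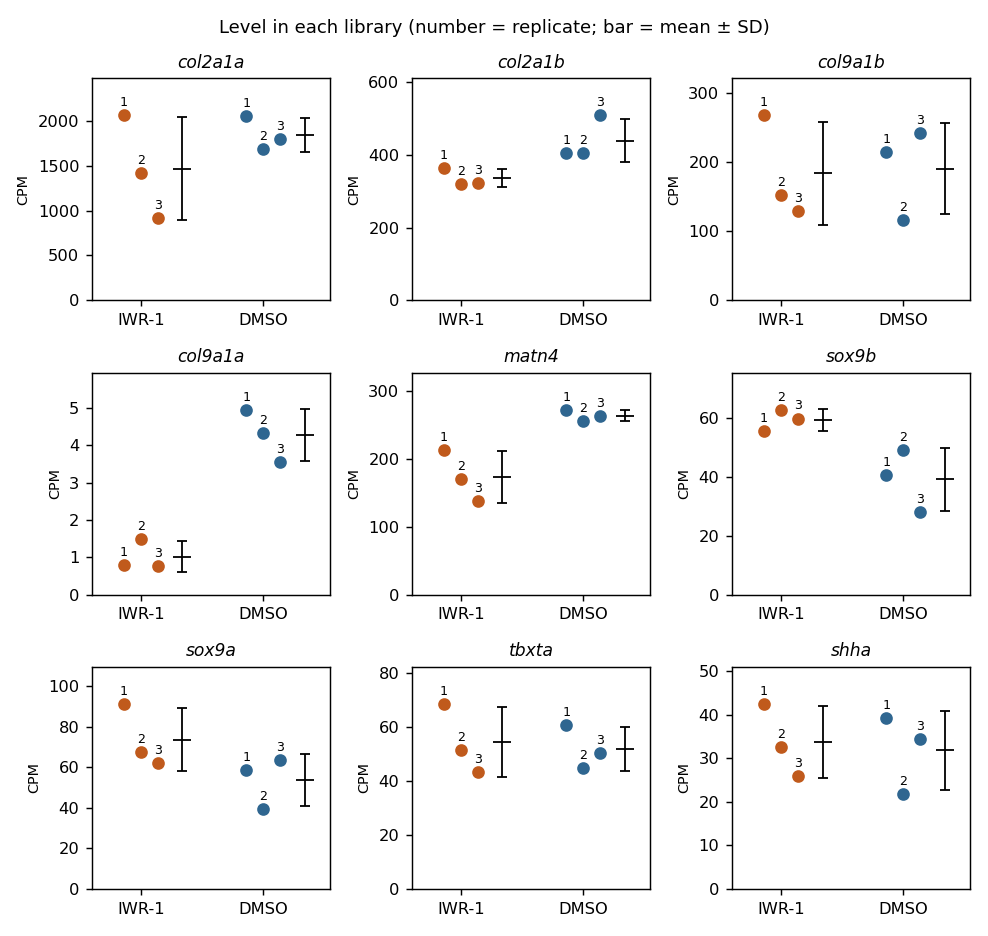
Scaled CPM of 9 genes in each library, IWR-1 left and DMSO right, with the replicate number over each point and the mean ± SD beside it; each axis starts at 0. col9a1a, matn4 and col2a1b lie lower in every IWR-1 library and sox9b lies higher, while the groups of col2a1a, col9a1b, sox9a, tbxta and shha overlap.

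Collagen VIII forms hexagonal networks, and its gene col8a1a is needed for a straight notochord in zebrafish. col8a1a ranged from 59.8 to 148 CPM with IWR-1 and from 70.0 to 109 CPM with DMSO (log2 fold change 0.38 ± 0.29 SE, edgeR adjusted p = 0.450). The copy col8a1b, with 1.98 to 6.89 CPM with IWR-1 and 2.64 to 5.91 CPM with DMSO, had the widest standard error of the 30 genes (0.04 ± 0.45, and -0.03 with the replicate block).

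Aggrecan is the large chondroitin sulfate proteoglycan that holds water in cartilage. acanb had 239, 178 and 103 CPM with IWR-1, against 246, 191 and 172 CPM with DMSO, and the groups overlapped (log2 fold change -0.23 ± 0.26 SE, edgeR adjusted p = 0.627). acana, at 8.35 ± 3.72 CPM with IWR-1 and 8.34 ± 1.30 CPM with DMSO, had a log2 fold change of 0.00 ± 0.30 (-0.07 with the replicate block).

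Matrilins are adaptors between collagen fibrils and proteoglycans, and 0 of 3 tested passed, with matn4 nearest to the threshold. matn4 (ENSDARG00000015947, chromosome 6, 52790049 to 52846194 in GRCz11, plus strand) had 213, 170 and 137 CPM with IWR-1, against 272, 256 and 263 CPM with DMSO. All IWR-1 libraries lay below all DMSO libraries, and within the DMSO group the values were close (263 ± 8.06 CPM, SD, n = 3). The log2 fold change was -0.61 ± 0.17 SE at an edgeR adjusted p of 0.0539; with the replicate block it was -0.63 ± 0.14, at an edgeR adjusted p of 0.00408. The adjusted p was 0.0157 with DESeq2, and in the authors' deposited table it was 0.0151. With 1 library left out, the edgeR adjusted p ran from 0.0261 (IWR-1 replicate 1 left out) to 0.251 (IWR-1 replicate 3 left out), and it was 0.0323 when DMSO replicate 2 was left out. The other matrilins were matn3a, at 0.23 ± 0.31, and matn3b, at -0.34 ± 0.27. Of the counts of this pair matn3a gave 67.7, 64.9 and 64.7% with IWR-1, against 61.0, 57.1 and 51.7% with DMSO, without overlap.

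Among 5 other secreted or matrix proteins, 0 passed. The level of cmn was 478, 298 and 250 CPM with IWR-1, against 487, 199 and 467 CPM with DMSO (log2 fold change -0.17 ± 0.32 SE, edgeR adjusted p = 0.787). Within each group its highest and lowest libraries differed by more than the group means did. epyc (epiphycan, a small leucine-rich proteoglycan) stood at -0.27 ± 0.27, and ucmab (a cartilage matrix protein) at -0.40 ± 0.22. cnmd (chondromodulin, which keeps vessels out of cartilage) stood at 0.09 ± 0.27, and snorc (a small proteoglycan of chondrocytes) at -0.16 ± 0.36. The edgeR adjusted p of these 4 ran from 0.307 for ucmab to 0.865 for cnmd.

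Of the Sox genes, 0 of 4 passed the test, and sox9a and sox9b both had fold changes above 0. The values of sox9b were 55.4, 62.8 and 59.8 CPM with IWR-1, against 40.6, 49.2 and 27.9 CPM with DMSO, without overlap. Its log2 fold change was 0.60 ± 0.19 SE (edgeR adjusted p = 0.0832), and with the replicate block 0.63, at an edgeR adjusted p of 0.00751. With 1 library left out the edgeR adjusted p ran from 0.00778 (DMSO replicate 2 left out) to 0.243 (IWR-1 replicate 3 left out). sox9a, the other copy, had 91.2, 67.6 and 62.0 CPM with IWR-1, against 58.7, 39.2 and 63.4 CPM with DMSO. Within replicate numbers 1, 2 and 3 the log2 ratio of sox9a, IWR-1 over DMSO, was 0.63, 0.79 and -0.03. Its groups overlapped through DMSO replicate 3 (log2 fold change 0.45 ± 0.20 SE, edgeR adjusted p = 0.203, and 0.0441 with the replicate block). The genes of the partner factors did not share this sign: sox5 stood at -0.21 ± 0.16 and sox6, at 161 ± 12.8 CPM with IWR-1 and 173 ± 16.1 CPM with DMSO, at -0.10 ± 0.14 (edgeR adjusted p of 0.432 and 0.708). The values of sox9a, sox9b and matn4 are set out because of what they showed. In a list of 15 cofactors and relatives of Sox9, edgeR called 0, against 7.47% of all genes tested. With the replicate block it also called 0, against 17.8% of all genes. An unadjusted edgeR p below 0.05 was reached by 2, against 24.1% of all genes. The median log2 fold change of this list was 0.12.

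Some genes of other cell types were also called in the same tissue. sox9 genes are also expressed in neural progenitors and glia. Of 19 tested glia genes 1 rose (mpz, a myelin gene, 1.17) and 2 fell (the glutamate transporter genes slc1a3a and slc1a3b, -0.69 and -0.57). That is 15.8% called, against 7.47% of all genes tested. Summed glia genes stood at 1571 to 1747 CPM with IWR-1 and 1409 to 1847 CPM with DMSO. The calls of slc1a3a and slc1a3b ended when any IWR-1 library or DMSO replicate 1 was left out. Over all genes, too, fewer were called in each of those fits. With the replicate block 2 glia genes were called higher and 3 lower, where 17.8% of all genes were called. Of 20 fibroblast genes, given further on, 10 fell. The part of these cells in the values of matn4, sox9a and sox9b was not tested.

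Of the T-box genes 0 of 2 passed the test, and of the hedgehog ligand genes 0 of 2. tbxta had 68.6, 51.5 and 43.3 CPM with IWR-1, against 60.8, 44.7 and 50.3 CPM with DMSO, with overlap between the groups (log2 fold change 0.07 ± 0.19 SE, edgeR adjusted p = 0.856). The 95% interval of tbxta ran from -0.34 to 0.48. tbxtb, the second Brachyury copy, was at 13.3 ± 5.22 CPM with IWR-1 and 10.5 ± 4.02 CPM with DMSO (0.33 ± 0.31, edgeR adjusted p = 0.551). shha had 42.5, 32.6 and 26.0 CPM with IWR-1, against 39.2, 21.7 and 34.5 CPM with DMSO (0.08 ± 0.23, edgeR adjusted p = 0.862). shhb, at 1.81 ± 0.546 CPM with IWR-1 and 2.21 ± 0.454 CPM with DMSO, stood at -0.31 ± 0.31 (edgeR adjusted p = 0.584). For each of the 4 genes the IWR-1 and DMSO values overlapped.

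Other genes of the hedgehog pathway gave 1 call. Of 25 tested, 1 fell (scube1, -0.65 ± 0.17, edgeR adjusted p = 0.0459), 0 rose and 24 did not pass. That is 4% called, against 7.47% of all genes tested. Beside receptors, transducers and targets the list holds a ligand gene and genes of secreted or release factors, scube1 among them. With the replicate block, which called 17.8% of all genes, 1 was called higher and 3 lower, and DESeq2 called 1 higher. With upper-quartile scaling scube1 had an edgeR adjusted p of 0.0514 and 0 of the list were called lower. The median over this list was -0.01. The receptor and target gene ptch1 stood at 0.21 ± 0.19, and gli1, a transcription factor induced by the pathway, at 0.25 ± 0.19. Shha also comes from the floor plate of the cord, and of 13 floor plate genes 1 fell (ntn1a, the axon guidance gene netrin, -0.77 ± 0.18, edgeR adjusted p = 0.0245). That is 7.69% called, near the 7.47% of all genes tested. With the replicate block 1 floor plate gene was called higher (foxa1, a forkhead transcription factor, edgeR adjusted p = 0.0192) and 1 lower, and with DMSO replicate 2 left out 3 were called lower. Both the scube1 and the ntn1a calls ended when IWR-1 replicate 2, IWR-1 replicate 3 or DMSO replicate 1 was left out, that of scube1 also with DMSO replicate 2 left out and that of ntn1a with IWR-1 replicate 1 left out.

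For most of these genes the libraries of 1 group differed from each other in a shared order. Within the IWR-1 group replicate 1 was the highest library for 26 of the 30 genes and replicate 3 the lowest for 26, against 37.1% and 29.7% of all genes tested. Within the DMSO group replicate 2 was the lowest for 20 of the 30, against 40.8% of all genes, and replicate 1 the highest for 17, against 25.4%. The median deviation of log2 CPM from the mean of the 6 libraries was 0.40, -0.12 and -0.46 in IWR-1 replicates 1, 2 and 3, against 0.27, -0.26 and 0.18 in DMSO replicates 1, 2 and 3. Over all genes these medians lay between -0.01 and 0.02. The median SD within groups was 0.42 on the log2 scale for the 30 genes and 0.25 for all genes.

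**Figure D3:**
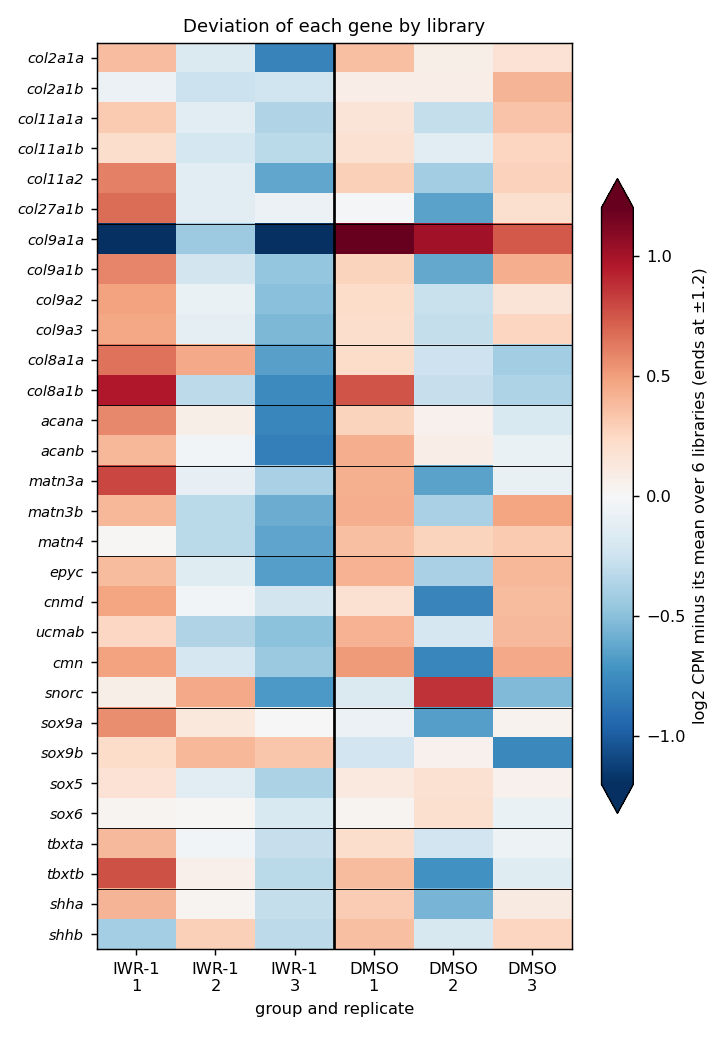
Deviation of log2 CPM from its mean over the 6 libraries, for the 30 tested genes (rows, by role) in each library (columns, IWR-1 left of the line). Within the IWR-1 group replicate 1 is the highest and replicate 3 the lowest for 26 of 30 genes each, and DMSO replicate 2 is the lowest of its group for 20. In at least 1 respect 12 genes depart from this order, col9a1a among them.

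Setting aside which DMSO library was highest, 12 of the 30 genes departed from this order of libraries in at least 1 respect. IWR-1 replicate 1 was not the highest of its group for col9a1a, sox9b, shhb and snorc. IWR-1 replicate 3 was not the lowest for col2a1b, sox9b, shhb and col27a1b. DMSO replicate 2 was not the lowest of its group for col2a1b, col8a1a, col8a1b, col9a1a, acana, acanb, sox9b, sox5, sox6 and snorc. Of the 9 roles the 4 Sox genes had the narrowest range by library, with median deviations between -0.09 and 0.19. Of the other lists, the hedgehog genes followed the same order in their medians. These were 0.19, -0.06 and -0.19 in IWR-1 replicates 1, 2 and 3, against 0.15, -0.14 and 0.02 in DMSO replicates 1, 2 and 3. So did the floor plate genes, at 0.10, -0.17 and -0.18 with IWR-1, against 0.16, -0.36 and 0.09 with DMSO. The fibroblast genes did as well, at -0.16, -0.27 and -0.48 with IWR-1, against 0.33, 0.14 and 0.39 with DMSO. Other notochord genes, given further on, stood at 0.01, 0.01 and -0.14 with IWR-1, against 0.09, -0.03 and 0.04 with DMSO. Other cartilage genes stood at 0.10, 0.08 and -0.18 with IWR-1, against 0.15, 0.05 and -0.09 with DMSO, with DMSO replicate 3 lowest. The tendon genes stood at 0.32, -0.28 and -0.23 with IWR-1, against 0.34, -0.45 and 0.29 with DMSO, with IWR-1 replicate 2 lowest. The skeletal muscle genes stood at 0.16, 0.01 and 0.05 in the IWR-1 libraries, against -0.14, -0.05 and -0.04 in the DMSO libraries. The amount of notochord in each dissected segment was not recorded in the labels, and its part in this order was not tested.

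Within replicate numbers the median difference was above 0 for numbers 1 and 2 and below 0 for number 3. IWR-1 was above DMSO for 20 of the 30 genes within number 1 and for 19 within number 2, with median log2 ratios of 0.17 and 0.19. Within number 3, IWR-1 was below DMSO for 29 of the 30, with a median of -0.60; the exception was sox9b. Over all genes 49.8%, 50.8% and 49.0% were above 0 within numbers 1, 2 and 3. Only sox9b was above 0 in all 3 numbers, and col2a1b, col9a1a, acanb, matn4, sox6 (-0.00 in number 1) and ucmab were below 0 in all 3. These are 3.33% and 20.0% of the 30 genes, against 25.7% and 26.5% of all genes tested.

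**Figure D4:**
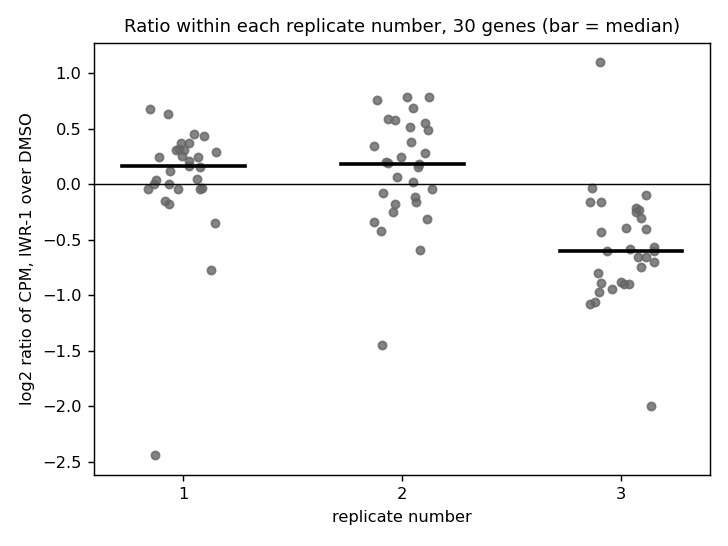
Log2 ratio of CPM, IWR-1 over DMSO, for each of the 30 tested genes within replicate numbers 1, 2 and 3; the bar is the median. The medians are 0.17 and 0.19 for numbers 1 and 2 and -0.60 for number 3, where sox9b is the 1 gene above 0; the lowest point in each column is col9a1a.

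Other genes of the notochord and of cartilage were read from separate lists. Of 25 other tested notochord genes, several of them expressed in many tissues, 3 fell and 1 rose, which is 16% called, against 7.47% of all genes tested. The median was -0.06, and 9 had an unadjusted edgeR p below 0.05, against 24.1% of all genes tested. With the replicate block 5 were called lower and 2 higher, where 17.8% of all genes were called in either direction. The genes that fell were ntd5 (-0.95 ± 0.17 SE, edgeR adjusted p = 0.00914), the secretory coat gene sec23a (-0.65 ± 0.14, 0.0214) and the caveolin gene cav1 (-0.58 ± 0.14, 0.0326). The 1 that rose was crp1 (1.36 ± 0.20, edgeR adjusted p = 0.00301). Its place in this list rests on the symbol alone, so it is not read as a notochord marker, and its source in the tissue was not tested. The call of crp1 held with each library left out; that of ntd5 ended when IWR-1 replicate 3 was left out, and those of cav1 and sec23a when IWR-1 replicate 2, IWR-1 replicate 3 or DMSO replicate 1 was left out (cav1 also with IWR-1 replicate 1 left out). Of 29 other cartilage genes, 1 fell (hapln3, which encodes a link protein between hyaluronan and proteoglycans, -1.26 ± 0.26, edgeR adjusted p = 0.0151) and 28 did not pass. That is 3.45% called. The median was 0.04, and with the replicate block 1 was called higher and 1 lower. The call of hapln3 ended with IWR-1 replicate 1 or 3 left out. Of 10 bone genes, 3 fell (30% called), dlx5a (-1.75), spp1 (-1.16) and dlx3b (-1.04), and dlx5a was still called with any library left out. The call of spp1 ended with IWR-1 replicate 1 or 3 left out, and that of dlx3b with IWR-1 replicate 1 or 2 left out. The osteoblast factor genes sp7 and runx2b did not pass (edgeR adjusted p of 0.157 and 0.241), and 4 of the 10, runx2a among them, had fold changes above 0. Of 9 tendon genes 0 passed. An unadjusted edgeR p below 0.05 was found for 2 of them, against 24.1% of all genes tested. With the replicate block 2 fell, where 17.8% of all genes were called in either direction.

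Fibroblast genes gave a different count in the same libraries. Of 20 tested, 10 fell and 0 rose, which is 50% called, against 7.47% of all genes tested. The median of these 20 was -0.67. The 4 with the smallest p were fmoda (fibromodulin, -1.30), the homeobox genes prrx1a (-1.19) and prrx1b (-1.26) and lum (lumican, -0.83). These 4 were called with each library left out. The number called lower was 4 with IWR-1 replicate 3 left out, 6 with IWR-1 replicate 2 or DMSO replicate 1 left out, and 9 to 12 otherwise. Over all genes 189 were called lower without IWR-1 replicate 3, 276 without IWR-1 replicate 2 and 341 without DMSO replicate 1. With all libraries that number was 703. Type I collagen, the fibril of skin, tendon and bone, summed to 10101, 10441 and 8665 CPM in IWR-1 replicates 1, 2 and 3, against 16009, 20143 and 15435 CPM in DMSO replicates 1, 2 and 3. The groups did not overlap, and each of its genes, col1a1a, col1a1b and col1a2, fell; all 3 calls ended with IWR-1 replicate 3 left out.

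The 6 fibrillar collagen genes of cartilage and notochord summed to 4250, 3044 and 2389 CPM with IWR-1, against 4129, 3349 and 4107 CPM with DMSO, and the groups overlapped. Per 100 CPM of type I collagen they gave 42.1, 29.2 and 27.6 with IWR-1, against 25.8, 16.6 and 26.6 with DMSO. Every IWR-1 library had a higher ratio than every DMSO library, by a narrow margin between IWR-1 replicate 3 and DMSO replicate 3. Collagen IX per 100 CPM of type I gave 6.02, 3.68 and 3.48 with IWR-1, against 3.15, 1.61 and 3.39 with DMSO, also without overlap. These ratios were set up after the values had been seen and are a description with no test. Both share the type I denominator, which was lower in every IWR-1 library, so they are not separate observations. The numerators alone overlapped between the groups.

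**Figure D5:**
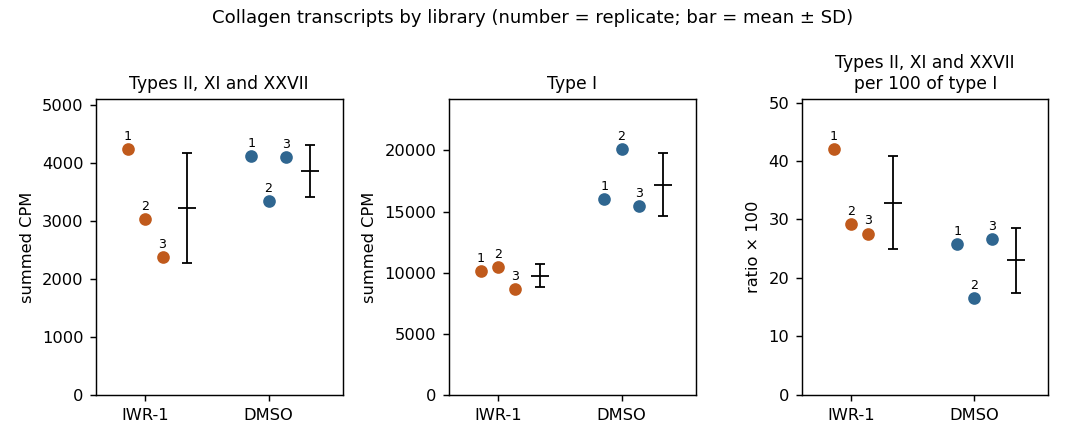
Summed CPM of the fibrillar collagen genes of types II, XI and XXVII, of type I collagen, and their ratio × 100 in each library, with the replicate number over each point and the mean ± SD beside the group. The first sums overlap between the groups, type I lies at 8665 to 10441 CPM with IWR-1 and 15435 to 20143 CPM with DMSO, and the ratio lies at 27.6 to 42.1 with IWR-1 and 16.6 to 26.6 with DMSO.

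Other cell types and the drug readout were as follows in these libraries. The Wnt feedback gene axin2 fell (log2 fold change -0.68 ± 0.15 SE, edgeR adjusted p = 0.0211). Of 20 skeletal muscle and 20 neuron genes 0 passed the edgeR test in each list. An unadjusted edgeR p below 0.05 was found for 5 and 4, against 24.1% of all genes tested. The replicate block called 4 and 6, against 17.8% of all genes tested. Of 12 macrophage genes 4 rose (mpeg1.2, lcp1, ptprc and cybb), which is 33.3% called, against 7.47% of all genes tested. Of these 4, mpeg1.2 alone held with each library left out. With the replicate block 8 were called higher, where 17.8% of all genes were called in either direction. Leaving out IWR-1 replicate 2, IWR-1 replicate 3 or DMSO replicate 1 left 1 macrophage gene called. Over all genes these omissions left 320, 258 and 339 called higher and 276, 189 and 341 lower. With all libraries 759 were called higher and 703 lower. Of 17 epidermis genes 4 fell and 2 rose (35.3% called), and with the replicate block 8 were called lower and 2 higher. The same 3 omissions left 1 epidermis gene lower and 0 higher, and krt17 was the 1 gene whose call held with each library left out. With upper-quartile scaling 2 epidermis genes were called lower, and with the CPM filter 1 was called higher. Summed macrophage genes ran from 332 to 539 CPM with IWR-1 and from 237 to 305 CPM with DMSO, and summed epidermis genes from 3566 to 5280 CPM with IWR-1 and from 5724 to 6911 CPM with DMSO.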

How the data were processed

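Total RNA was extracted with a kit for fixed tissue and made into directional, rRNA-depleted libraries, per the labels' protocols. The submitters' processing notes name GRCz11 and the tools STAR, featureCounts, cutadapt and FastQC, without versions or the strand setting of the counting. The authors deposited raw counts per Ensembl gene. Their deposited comparison holds log2 fold changes, standard errors and adjusted p-values under DESeq2's column names, per the file headers. Its standard errors reach at most 0.335, so the fold changes appear shrunken. The deposited annotation sheet gave symbols and coordinates, and columns were matched to samples through the deposited sample sheet.

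The test was edgeR's quasi-likelihood test (edgeR 4.0.16, R 4.3.3) in its robust form, after filterByExpr and TMM scaling, with Benjamini-Hochberg adjustment over all 19562 genes tested; 2788 were removed as too low. Standard errors are the log2 fold change over the square root of F, and intervals are at 95%. CPM are scaled by TMM. Deviations and ratios used log2 CPM with a prior count of 2. CPM do not correct for transcript length. The shares within pairs of copies, the ratios to type I collagen and the ranking by mean CPM are therefore also uncorrected for length. Levels are otherwise not compared between genes. Counting error limits col9a1a, matn1, ucmaa and shhb most, and the labels mention no molecular identifiers. Members of a list with more than 1 ID were taken at the ID with most counts (2 symbols). Several genes overlap another gene on the opposite strand, matn4 with rbpjl (19 counts) and ucmab with camk1db (331 counts) among them; if counting ignored strand, these cannot be told apart. Reads of near-identical copies may also be shared.

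The genes, the 13 lists beside them and the tests were chosen with earlier results of these data known. The rule for full values was a call, the 10 highest mean CPM, or being the copy of a called gene, and up to 4 called genes with the smallest p from each other list; other genes are named for completeness or as stated. All p-values measure the spread between pooled samples that the labels call biological replicates. Samples with the same replicate number deviated together (correlation of deviations from group means 0.322, 0.364 and 0.175 for numbers 1, 2 and 3, all over 0.1); what a number stands for is not in the labels. Same-group libraries differed beyond sampling noise, with chi-square values of at least 8.18 per degree of freedom. As alternatives, each library was left out in turn, the replicate number entered as a block, DESeq2 1.42.0 replaced edgeR, scaling was by RLE or upper quartile, the filter was dropped or set to a CPM of at least 1 in 3 libraries, and the 10 most abundant genes were removed with the mitochondrial ones. Counts were also simulated for this comparison, with 19329 genes tested at 2-fold and 19338 at 1.5-fold, of which only some were given a change. Of the genes given a change, 59.1% were called at 2-fold and 1.01% at 1.5-fold. These shares depend on how many genes were changed. The simulated libraries were also drawn without the deviation that same-numbered libraries shared. The shares therefore do not give the power in the measured data. They are not specific to the notochord and cartilage genes either. The median SD within groups was 0.42 on the log2 scale for those genes, against 0.25 for all genes tested.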

Additional observations from a re-analysis of the deposited data

How the results depend on the processing

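The 30 tested genes were refitted under 13 alternatives. col9a1a was called lower under all 13, with log2 fold changes from -2.43 to -1.90. With the replicate block 2 of the genes were called higher and 2 lower, with DESeq2 2 lower, and with each library left out between 0 and 1 higher and between 1 and 2 lower. Their median log2 fold change ran from -0.36 (IWR-1 replicate 1 left out) to 0.12 (IWR-1 replicate 3 left out), and was 0.01 with DMSO replicate 1 left out. Over all genes 1753 were called higher and 1733 lower with the replicate block; with a library left out, between 258 and 1035 were called higher and between 189 and 1082 lower, the lowest counts with IWR-1 replicate 3 and the highest with DMSO replicate 3 left out. The block changed the calls of matn4, sox9a and sox9b and of no other gene of the 30.

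For 12 of the 30 genes no alternative changed the sign or the call. For 15 genes, none of them called, the sign of the log2 fold change turned; 3 did so under other settings as well as without a library: acana and col8a1b with the block (-0.07 and -0.03) and col9a2 with upper-quartile scaling (0.00). The ranges without single libraries were -0.36 to 0.30 for acana, -0.53 to 0.04 for acanb, -0.49 to 0.04 for cmn, -0.18 to 0.32 for cnmd, -0.33 to 0.02 for col11a1a, -0.45 to 0.19 for col11a2, -0.68 to 0.51 for col8a1b, -0.44 to 0.14 for col9a1b, -0.32 to 0.18 for col9a2, -0.39 to 0.13 for col9a3, -0.20 to 0.54 for matn3a, -0.12 to 0.26 for shha, -0.43 to 0.37 for snorc, -0.13 to 0.21 for tbxta and -0.03 to 0.65 for tbxtb. The cause was not tested.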
